A study of Homo sapiens with 3 samples.

Results

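Small nucleolar RNA host genes were examined in GoldCLIP peak lists of RPL22 and its paralog RPL22L1. The members were chosen by symbol, as the GRCh38 RefSeq genes named SNHG followed by a number plus GAS5, and 30 of 58998 genes placed on chromosomes met this rule. All 30 are annotated as long non-coding RNA genes. The name held for nearly all of them: 25 contained at least 1 annotated snoRNA gene, another 4 (SNHG10, SNHG20, SNHG21 and SNHG22) contained a small Cajal body RNA (scaRNA) gene only, and SNHG27 contained neither.

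The cells were HCT116, an established human colorectal carcinoma line, grown in McCoy's medium with serum. The 3 samples, 1 library each, carried HaloTag alone, RPL22-HaloTag or RPL22L1-HaloTag, where HaloTag is a protein tag that binds covalently to its ligand on beads, so that RNA crosslinked to a fusion protein can be washed under harsh conditions. RPL22 and RPL22L1 are proteins of the large ribosomal subunit. The library of HaloTag alone was not used here, and the number of reads behind each list is unknown. Whether the tagged lines were single clones, and whether tagged and untagged protein were present together, is not given in the sources used here. Each deposited list gave peak positions and the authors' score, a whole number per peak that is used here only to rank peaks within its own list. With 1 library per group there is no test between the libraries, no SD and no p-value; the 95% intervals below were computed by the exact Clopper-Pearson method and reflect counting error alone. Strand was not given for any peak.

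Host genes of this kind are transcribed as long RNAs whose introns release snoRNAs after splicing. Box C/D snoRNAs (SNORD) guide 2′-O-methylation and box H/ACA snoRNAs (SNORA) guide pseudouridylation, mostly of ribosomal RNA, while scaRNAs guide the same modifications on spliceosomal RNAs. The spliced host RNA often has little protein-coding capacity, and many host genes begin transcription at the pyrimidine-rich start that is also typical of ribosomal protein genes.

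Peaks in these genes fell into 2 sets: very high peaks inside the snoRNA or scaRNA genes, and low peaks elsewhere, mostly in a few long members. In the RPL22-HaloTag list 18 of 30 members held a summit (60%, 40.6 to 77.3%), where 35.4% of all genes did. In the RPL22L1-HaloTag list 22 of 30 did (73.3%, 54.1 to 87.7%), where the background was 37.1%. All 18 members of the first list were among the 22 of the second, and 8 members held no summit in either. Of lncRNA genes in general, 29.2% and 31% held a summit. Of the 523 protein-coding genes that contain a snoRNA gene, 88.9% and 93.1% did.

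The RPL22-HaloTag list had 73 summits in members, of which 14 lay in a snoRNA gene (19.2%, 10.9 to 30.1%), 2 in a scaRNA gene and 57 outside both. The RPL22L1-HaloTag list had 118 summits, of which 20 lay in a snoRNA gene (16.9%, 10.7 to 24.96%), 3 in a scaRNA gene and 95 outside both. snoRNA genes made up 1.36% of the 982007 bases of the members. Summits were 17.3 times as dense inside snoRNA genes as elsewhere in members in the RPL22-HaloTag list and 14.8 times in the RPL22L1-HaloTag list. SNHG14 alone held 60.7% of these bases, and without it the ratios were 35.6 and 42.1. In those protein-coding hosts, which held 7393 and 13057 summits, 1.37% and 1.09% of summits lay in the snoRNA gene. The share of their bases in snoRNA genes was not computed, so no density ratio can be set beside that of members.

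**Figure D1:**
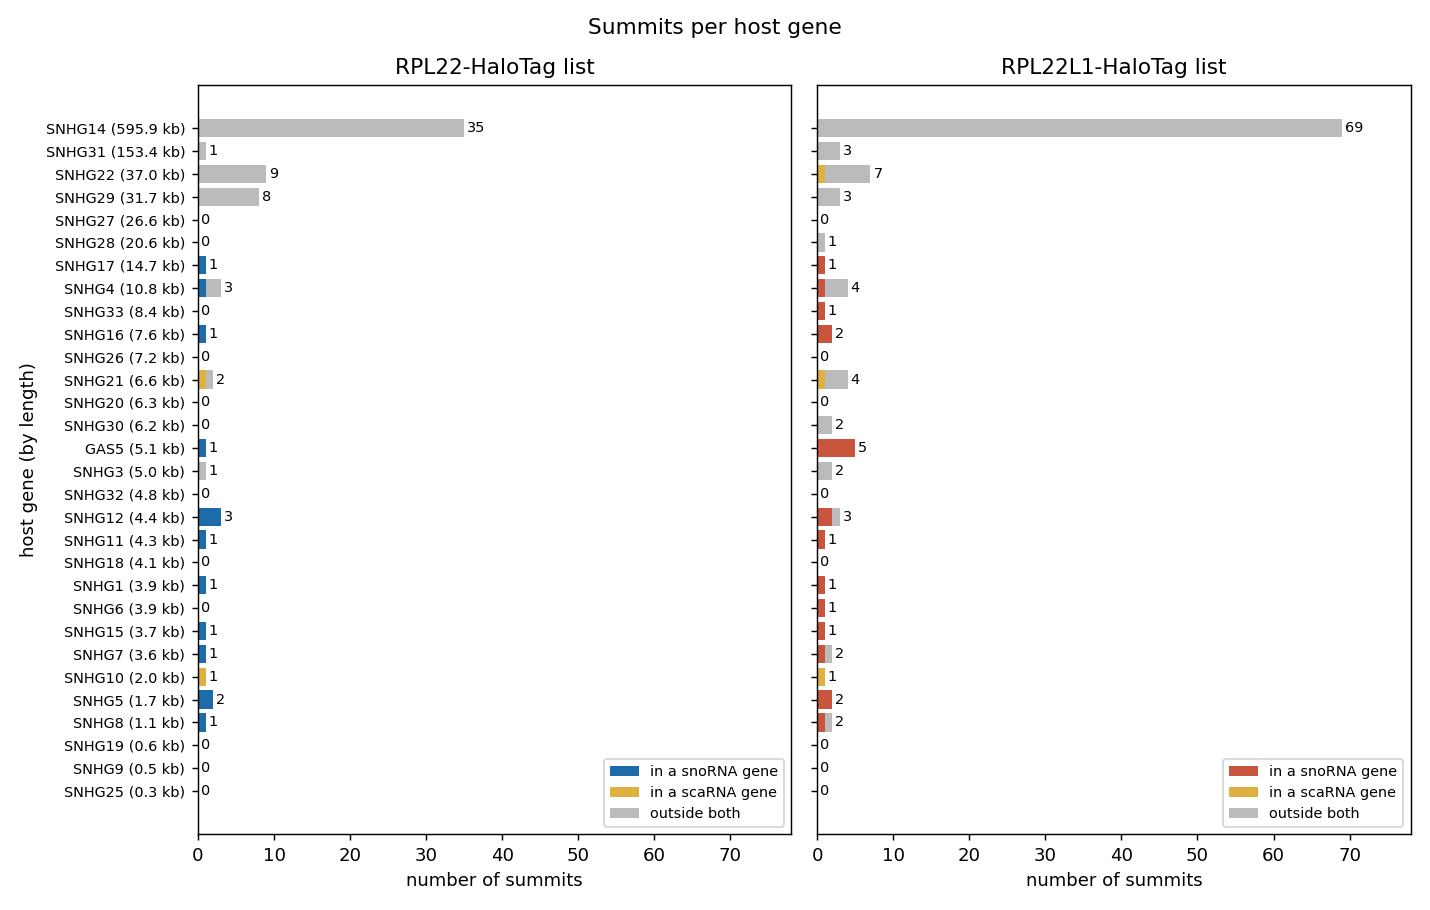
Number of summits (x axis) in each of the 30 host genes (y axis, ordered by length), for the RPL22-HaloTag list on the left and the RPL22L1-HaloTag list on the right. Coloured parts are summits in snoRNA genes, yellow parts summits in scaRNA genes and grey parts summits outside both; SNHG14, with 35 and 69 summits, has only grey.

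Both sets differed widely in score, and their ranges overlapped only through a few peaks. In the RPL22-HaloTag list the 14 peaks in snoRNA genes had scores from 1085 to 336368 with a median of 26661, and the 57 peaks outside had scores from 13 to 2300 with a median of 33, which is also the median of the whole list. In the RPL22L1-HaloTag list the 20 peaks in snoRNA genes had scores from 2134 to 748674 with a median of 54200, and the 95 peaks outside had scores from 19 to 2562 with a median of 150, near the list's median of 124. Every snoRNA and scaRNA peak of a member lay in the top 1% of scores of its list. At least 1 peak of that rank was held by 14 of 30 members in the RPL22-HaloTag list and by 18 of 30 in the RPL22L1-HaloTag list, where 2.32% and 3.49% of all genes held one. Protein-coding snoRNA hosts held such peaks too, such as NCL (rank 18, RPL22-HaloTag) and EIF4A2 (rank 4, RPL22L1-HaloTag), but their share was not computed. Peaks in snoRNA or scaRNA genes of members took 5 of the first 50 places of the RPL22-HaloTag list and 6 of the first 50 of the RPL22L1-HaloTag list. None of these peaks was flat, meaning 30 bases wide, the smallest width in the lists, with the summit exactly 15 bases after the first base. Some came close, such as the RPL22L1-HaloTag peak in SNORD81, which is 30 bases wide with its summit 14 bases after the first. Outside small RNA genes, 35 of 57 peaks (61.4%) and 66 of 95 (69.5%) were flat, no more than the 64.9% and 77.9% of the whole lists.

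**Figure D2:**
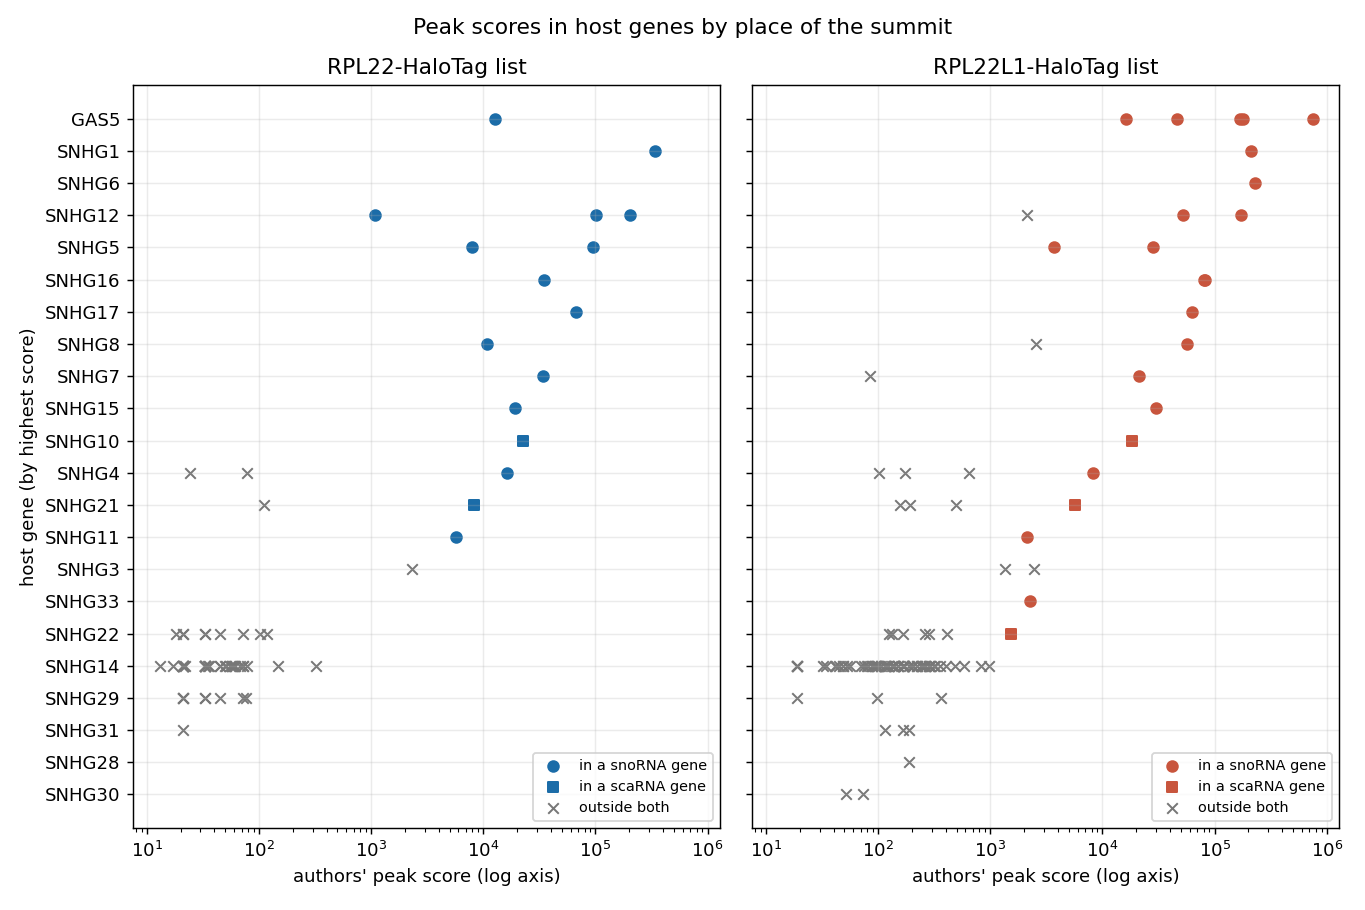
Authors' score of every peak (x axis, log scale) in each host gene with a summit (y axis, ordered by highest score), in the RPL22-HaloTag list on the left and the RPL22L1-HaloTag list on the right. Circles are summits in snoRNA genes, squares summits in scaRNA genes and crosses summits outside both; in the RPL22-HaloTag list no cross lies above 2300 and in the RPL22L1-HaloTag list none lies above 2562.

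Among hosts of box C/D snoRNAs, GAS5 (growth arrest specific 5, chr1:173863901-173869045) differed most between the lists in the number of occupied snoRNA genes. It contains 11 snoRNA genes. The RPL22-HaloTag list had a single peak there, in SNORD76, with a score of 12787 and rank 138. The RPL22L1-HaloTag list had 5 peaks, each in another snoRNA gene: SNORD79 scored 748674 (rank 12), SNORD75 177549 (rank 44), SNORD81 167646 (rank 46), SNORD76 46151 (rank 103) and SNORD77 16228 (rank 181). No summit of either list lay in the rest of GAS5.

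SNHG1 (chr11:62851978-62855885), the host of the U22 snoRNA and 8 other snoRNA genes, held 1 peak in each list, and both lay in SNORD27. The RPL22-HaloTag peak scored 336368 and had rank 8 of 154000. The RPL22L1-HaloTag peak scored 212465 and had rank 36 of 254413. Both summits fell on base 62855035. The other 8 snoRNA genes of SNHG1, SNORD22, SNORD25, SNORD26, SNORD28, SNORD29, SNORD30, SNORD31 and LOC124900306, held no summit in either list.

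SNHG5 (chr6:85677007-85678733), the host of the U50 snoRNAs, held a peak in each of its 2 snoRNA genes in both lists. SNORD50A scored 95197 (rank 33) in the RPL22-HaloTag list and 28361 (rank 126) in the RPL22L1-HaloTag list. SNORD50B scored 7882 (rank 204) and 3704 (rank 427). SNORD50A was thus the higher of the pair in both.

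SNHG16 (chr17:76557764-76565348) held an RPL22-HaloTag peak in SNORD1B, with a score of 34709 and rank 70. The RPL22L1-HaloTag list had SNORD1B at 79632 (rank 69) and SNORD1A at 82841 (rank 67). SNORD1C, the third copy in the gene, held none. SNHG6 (chr8:66921690-66925541) held no RPL22-HaloTag peak, while its only snoRNA gene, SNORD87, held an RPL22L1-HaloTag peak with a score of 229172 and rank 35.

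Among H/ACA genes of members, 8 were occupied in the RPL22-HaloTag list and 9 in the RPL22L1-HaloTag list, 8 of them in both. Among C/D genes the numbers were 6 and 11, with 5 in both, and this difference between the classes was not tested. Of the H/ACA hosts, SNHG12 (chr1:28578538-28582983), which contains 3 H/ACA genes and 1 C/D gene, held the 2 highest H/ACA peaks of members in the RPL22-HaloTag list. SNORA16A scored 201288 (rank 15) in the RPL22-HaloTag list and 171669 (rank 45) in the RPL22L1-HaloTag list, in peaks at the same bases, 28580925 to 28580954. SNORA44 scored 101663 (rank 30) and 52052 (rank 94). The C/D gene SNORD99 held a peak in the RPL22-HaloTag list only, at 1085 (rank 652), and SNORA61 held none.

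The other H/ACA hosts each held 1 occupied snoRNA gene. SNHG17 (chr20:38420588-38435328) had SNORA71D at 67747 (rank 45) in the RPL22-HaloTag list and 63442 (rank 81) in the RPL22L1-HaloTag list. SNHG7 (chr9:136724594-136728184) had SNORA17A at 34010 (rank 73) and 21165 (rank 151). SNHG15 (chr7:44983023-44986696) had SNORA9 at 19312 (rank 102) and 29714 (rank 122). These genes thus ranked among the first 200 peaks of both lists.

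SNHG4 (chr5:139274101-139284900), the host of the U19 snoRNA, had SNORA74A at 16206 (rank 114) in the RPL22-HaloTag list and 8236 (rank 273) in the RPL22L1-HaloTag list. SNHG11 (chr20:38446654-38450921) had SNORA71E at 5760 (rank 235) and 2134 (rank 673). SNHG33 (chr3:183447608-183456013) had no RPL22-HaloTag peak and an RPL22L1-HaloTag peak in SNORA63E at 2274 (rank 634). SNORA71A to SNORA71E are copies of related sequence, as are SNORD1A to SNORD1C. Other occupied genes share their numbered name with another gene of the same host. These are SNORA17A with SNORA17B, SNORA74A with SNORA74D, SNORA63E with SNORA63D, and SNORD50A with SNORD50B. How alike their sequences are was not compared here. The treatment of reads that match several copies is not given in the sources used here, so the copy named for such a peak is uncertain.

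SNHG8 (chr4:118278762-118279823) held SNORA24 at 10861 (rank 163) in the RPL22-HaloTag list and 56348 (rank 88) in the RPL22L1-HaloTag list. It was also the only member with a peak at its start. The RPL22L1-HaloTag list had a peak at chr4:118278777-118278806 with a score of 2562 (rank 563), which covers bases 16 to 45 of the annotated transcript. The RPL22-HaloTag list had none there. The RefSeq window of GRCh38.p14 around this start (chr4:118278512-118278811, plus strand, 250 bases before to 50 bases after) is shown because it contains the whole peak, whose bases are in capitals.

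SNHG8: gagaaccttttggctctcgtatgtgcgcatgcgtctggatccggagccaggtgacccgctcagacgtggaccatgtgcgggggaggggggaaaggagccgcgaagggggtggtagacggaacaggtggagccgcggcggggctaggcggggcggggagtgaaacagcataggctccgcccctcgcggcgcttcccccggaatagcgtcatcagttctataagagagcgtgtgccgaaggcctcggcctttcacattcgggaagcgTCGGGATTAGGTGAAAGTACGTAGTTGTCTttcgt

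Start windows of this length were available for 26 of the 30 members, 27 windows in all. A peak overlapped 0 of 27 windows in the RPL22-HaloTag list and 1 of 27, that of SNHG8, in the RPL22L1-HaloTag list. A run of 5 bases that are all C or T, beginning with C on the annotated first base of the transcript and read on the strand of the gene only, stood in 6 of the 27 member windows (22.2%) and in 4.07% of 35116 windows of all genes. With the run allowed to begin up to 10 bases to either side, the shares were 59.3% and 33.5%. These letters describe the annotated start and say nothing about binding. Windows of 3 members with snoRNA peaks and the run are given from 20 bases before to 30 bases from the start, with the unbroken C and T bases from the first base in capitals, as examples of the 6 starts with the run; the other 21 windows, those of SNHG1 and GAS5 among them, do not have it.
SNHG12 (chr1:28581844-28581893, minus strand): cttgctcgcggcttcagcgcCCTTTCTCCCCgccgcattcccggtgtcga
SNHG4 (chr5:139274081-139274130, plus strand): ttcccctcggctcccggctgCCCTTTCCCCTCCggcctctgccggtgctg
SNHG5 (chr6:85678704-85678753, minus strand): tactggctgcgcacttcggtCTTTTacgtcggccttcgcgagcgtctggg
No peak of either list overlapped the start windows of these 3 genes, although all 3 held snoRNA peaks in both.

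Of the 4 hosts with a scaRNA gene only, 2 held a peak in it in both lists. SNHG10 (chr14:95532912-95534872) had SCARNA13 at 22390 (rank 96) in the RPL22-HaloTag list and 18477 (rank 169) in the RPL22L1-HaloTag list. SNHG21 (chr15:82750564-82757206) had SCARNA15 at 8271 (rank 194) and 5633 (rank 343). SNHG22 (chr18:49814023-49851059) had SCARNA17 in the RPL22L1-HaloTag list only, at 1544 (rank 978), with the summit on the last base of that gene. SNHG20, with SCARNA16, held no summit in either list.

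Across the members, 14 of the 145 snoRNA genes of members held a summit in the RPL22-HaloTag list and 20 in the RPL22L1-HaloTag list, or 9.66% and 13.8%, where 11.7% and 15.8% of all 1193 snoRNA genes did. SNHG14 contains 84 of the 145, and 0 of them held a summit in either list. These 84 include 30 SNORD116 and 48 SNORD115 copies. The treatment of reads that match several copies is not given, so an empty copy and lost reads cannot be told apart. Of the 61 in the other members, 23.0% (13.2 to 35.5%) and 32.8% (21.3 to 46.002%) held one. The snoRNA genes of protein-coding genes gave 15.5% and 22.1%, and those in neither kind of gene 7.01% and 7.69%. Each occupied gene held exactly 1 summit. The lists had 13 snoRNA genes in common. SNORD99 was occupied in the RPL22-HaloTag list only, and 7 were occupied in the RPL22L1-HaloTag list only: SNORD75, SNORD77, SNORD79, SNORD81, SNORD1A, SNORD87 and SNORA63E. These are C/D genes except for SNORA63E. The RPL22L1-HaloTag list is the longer one, and the depth of the libraries cannot be told apart from the difference between the proteins.

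Where both lists held a peak, the summits nearly coincided. Over the 13 snoRNA genes and 2 scaRNA genes occupied in both, the peaks of all 15 overlapped. The summits were on the same base in 7 and 1 base apart in 4. In the last 4 they were 4 to 10 bases apart: SNORA17A by 4, SNORA24 and SNORD76 by 8 and SNORD50B by 10. Of the 8 H/ACA pairs 6 were at most 1 base apart, of the 5 C/D pairs 3, and of the 2 scaRNA pairs both. Scores in the lists had a Spearman correlation of 0.76 across these 15 genes, which is a description over sites that share their 2 libraries.

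Of all member peaks, 23 of 73 in the RPL22-HaloTag list overlapped an RPL22L1-HaloTag peak (31.5%, 21.1 to 43.4%), where 17.4% of the whole list did. In the RPL22L1-HaloTag list 23 of 118 overlapped (19.5%, 12.8 to 27.8%), where 10.6% of the list did. Inside snoRNA genes the numbers were 13 of 14 and 13 of 20. Outside small RNA genes they were 8 of 57 (6.26 to 25.8%) and 8 of 95 (3.71 to 15.9%), intervals that include the shares of the whole lists.

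Summits lay towards the 3′ end of the small RNA. The orientation was taken from the host gene, whose strand was given for 26 members, since an intron-encoded snoRNA is made from the host transcript. In the RPL22-HaloTag list 13 of 13 snoRNA summits with a known orientation lay beyond the midpoint of the gene (75.3 to 100%), and in the RPL22L1-HaloTag list 18 of 18 did (81.5 to 100%). H/ACA summits were 14 to 41 bases before the last base in the RPL22-HaloTag list (median 18, n = 7) and 10 to 33 in the RPL22L1-HaloTag list (median 17, n = 8). The H/ACA genes of members with a summit were 131 to 200 bases long. C/D summits were 4 to 29 bases before the last base (median 23.5, n = 6) and 4 to 33 (median 23.5, n = 10), in genes of 60 to 86 bases. SNORD50A, at 4 bases, was the nearest, and the same distance was seen in both lists.

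**Figure D3:**
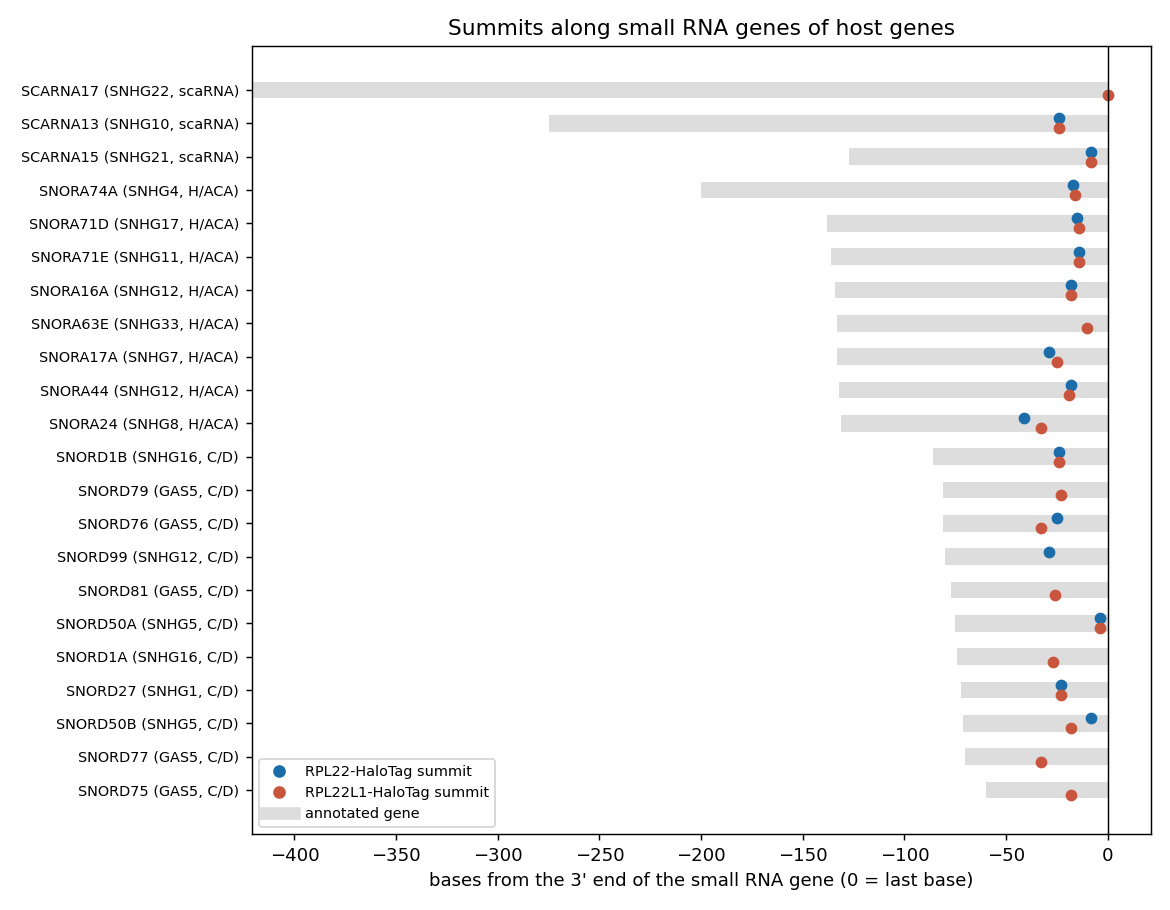
Position of each summit along its small RNA gene, as bases from the 3′ end (x axis; 0 is the last base, with the orientation of the host gene), for every occupied small RNA gene of a member with a known strand (y axis). Grey bars are the annotated genes, blue points RPL22-HaloTag summits and red points RPL22L1-HaloTag summits; all snoRNA summits lie within 41 bases of the 3′ end, and where both lists have a point the distance between them is 0 to 10 bases.

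The snoRNA genes inside protein-coding genes showed the same side less uniformly. Beyond the midpoint lay 57 of 77 RPL22-HaloTag summits (74.0%, 62.8 to 83.4%) and 87 of 108 RPL22L1-HaloTag summits (80.6%, 71.8 to 87.5%). These totals include snoRNA genes whose symbols name neither class, a kind with no summit among the members. H/ACA genes alone gave 31 of 39 (79.5%) and 43 of 50 (86%), and C/D genes alone 21 of 24 (87.5%) and 38 of 44 (86.4%). Some of these snoRNA genes may not lie on the strand of the gene around them, which the gene table does not show, and the difference from the members was not tested. Most peaks are short: those in snoRNA genes of members had a median width of 32.5 bases in the RPL22-HaloTag list and 34 bases in the RPL22L1-HaloTag list. Widths ranged from 30 to 39 and from 30 to 88 bases. Some RPL22L1-HaloTag peaks covered most of their gene, such as that in SNORD1B, 76 bases wide in a gene of 86 bases.

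High peaks outside small RNA genes were few. In the RPL22-HaloTag list 1 of 57 such peaks lay in the top 1% of scores, and in the RPL22L1-HaloTag list 5 of 95 did. SNHG3 (chr1:28505943-28510892), the host of the U17 snoRNAs SNORA73A and SNORA73B, held 1 of them in each list, at 2300 (rank 384) and 2448 (rank 589), with both summits on base 28506089. That base is 146 bases from the annotated start and 1276 bases from the nearer snoRNA gene. A second RPL22L1-HaloTag peak in SNHG3 scored 1343 (rank 1202). Neither SNORA73A nor SNORA73B held a summit. RCC1 overlaps SNHG3, and a peak there cannot be given to either gene.

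The other 3 were the start peak of SNHG8, a peak in SNHG12 and a peak in SNHG14. The SNHG12 peak scored 2107 (rank 681) in the RPL22L1-HaloTag list and lay 43 bases from the 3′ bound of the host and 162 bases from SNORD99. The RPL22-HaloTag list had no peak at this place. The SNHG14 peak scored 977 (rank 2270) and lay within UBE3A.

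The 4 longest members, SNHG14, SNHG31, SNHG22 and SNHG29, held 53 of the 59 RPL22-HaloTag summits outside snoRNA genes and 82 of the 98 RPL22L1-HaloTag summits outside. Flat peaks made up 35 of 53 and 62 of 82, near the shares of the whole lists. Most lay where the member shares its bases with a protein-coding gene: of all summits outside small RNA genes, 44 of 57 and 81 of 95 lay in another gene too.

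SNHG14 (chr15:24823608-25419462) is the long imprinted transcript of the Prader-Willi region, which carries the tandem SNORD116 and SNORD115 copies and in neurons runs antisense to UBE3A, a ubiquitin ligase gene. It held 35 RPL22-HaloTag summits with scores from 13 to 320 and a median of 35. It held 69 RPL22L1-HaloTag summits with scores from 19 to 977 and a median of 138. Of these, 23 of 35 (65.7%) and 63 of 69 (91.3%) lay within UBE3A, which covers 14.4% of SNHG14. The 30 SNORD116 copies span 56.9 kb, in which lay 1 and 0 summits, and the 48 SNORD115 copies span 99.1 kb, in which lay 1 and 1. None of these was inside a copy, and how reads that match several copies were treated is not given. Without strand, reads of SNHG14 and UBE3A cannot be told apart.

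**Figure D4:**
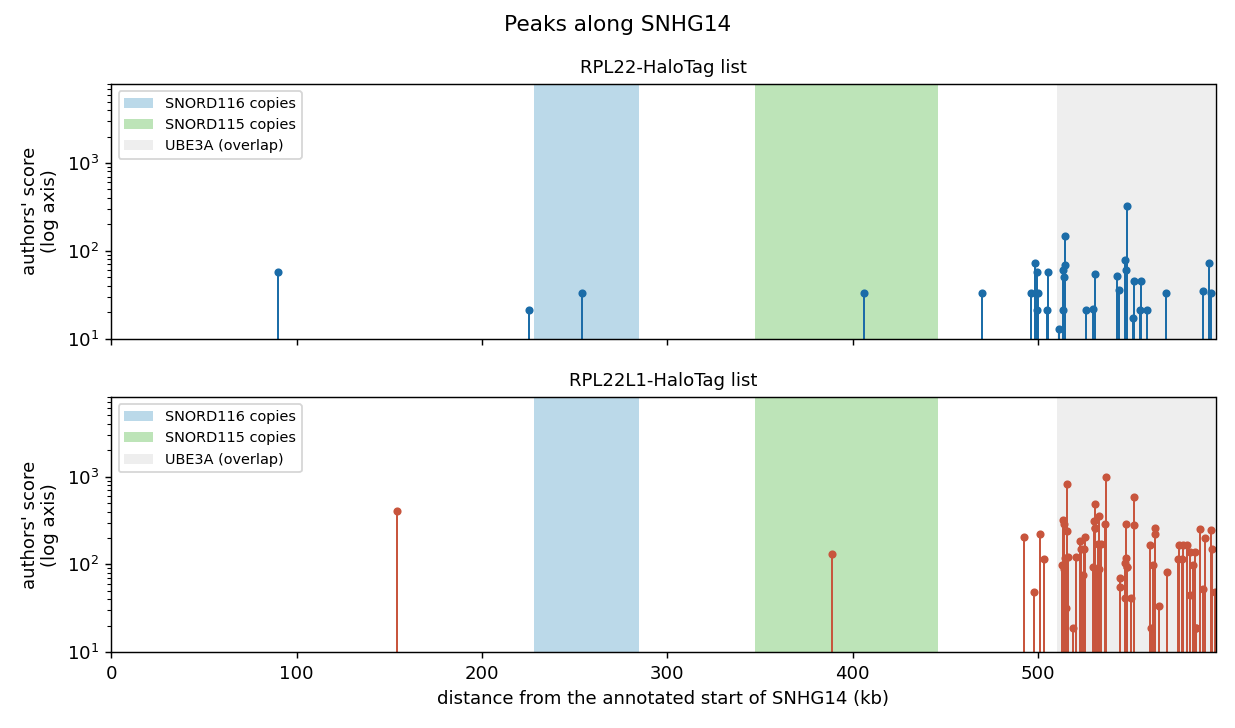
Peaks along SNHG14: score (y axis, log scale) against the distance of the summit from the annotated start of the gene (x axis, kb), for the RPL22-HaloTag list above and the RPL22L1-HaloTag list below. Shaded spans mark the SNORD116 copies, the SNORD115 copies and the overlap with UBE3A, which holds 23 of 35 and 63 of 69 summits.

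SNHG22 and SNHG29 also shared most of their summits with a protein-coding gene. All 9 RPL22-HaloTag summits in SNHG22 lay in MYO5B too, with scores from 18 to 118, and of the 7 RPL22L1-HaloTag summits the 6 outside SCARNA17 did. SNHG29 (chr17:16438987-16470648) held 8 RPL22-HaloTag summits with scores from 21 to 76 and 3 RPL22L1-HaloTag summits with scores from 19 to 364, all 11 in LRRC75A too. Its snoRNA genes SNORD49A, SNORD49B and SNORD65 held none. SNHG31 (chr2:214810229-214963605) held 1 and 3 summits, all flat.

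The numbers of summits could be compared only in these genes, since 10 summits in both lists together were required. The log2 ratio of summit number plus 1, RPL22L1-HaloTag over RPL22-HaloTag, was 0.96 in SNHG14, -0.32 in SNHG22 and -1.17 in SNHG29. Its median over the 9972 genes with at least 10 summits was 0.65, since the RPL22L1-HaloTag list is longer. A 2-fold excess of RPL22L1-HaloTag summits was seen in 0 of these 3 members and in 30.7% of all such genes. A 2-fold excess of RPL22-HaloTag summits was seen in 1 of 3, SNHG29, and in 2.36% of all. The SNHG14 ratio changed sign without the summits within UBE3A and other shorter genes: SNHG14 held 11 and 5 summits and the ratio was -1.00. These 3 genes are too few to describe the family.

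The remaining members held few summits or none. SNHG9, SNHG18, SNHG19, SNHG20, SNHG25, SNHG26, SNHG27 and SNHG32 held no summit in either list, at lengths from 340 to 26645 bases. SNHG28 and SNHG30 held only RPL22L1-HaloTag summits, with scores of 187 in SNHG28 and of 52 and 73 in SNHG30. Peak lists do not give the level of a host RNA or a snoRNA, so an empty gene and a gene that is little expressed in HCT116 cannot be told apart.

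The other genes of the pathway were set beside these members. The core proteins of snoRNA particles are FBL, the methyltransferase of C/D particles, with NOP56, NOP58 and SNU13, and DKC1, the pseudouridine synthase of H/ACA particles, with NHP2, NOP10 and GAR1. All 8 genes held an RPL22-HaloTag summit and 7 of 8 held an RPL22L1-HaloTag summit, where 35.4% and 37.1% of all genes held one. Of protein-coding genes that contain a snoRNA gene, as 3 of the 8 do, 88.9% and 93.1% held one. The 8 genes held 28 and 64 summits in all. Of these, 5 and 5 lay in the snoRNA genes that NOP56, NOP58 and DKC1 carry. The highest peaks were in the snoRNA genes of DKC1, with scores of 30133 (rank 80) and 46588 (rank 102).

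Of 30 protein-coding snoRNA hosts with products of translation, ribosome or nucleolus, or chaperones, 16 held an RPL22-HaloTag summit and 29 an RPL22L1-HaloTag summit, where 88.9% and 93.1% of all protein-coding snoRNA hosts did. Their summits lay in a snoRNA gene in 15 of 43 cases (34.9%) and in 29 of 94 cases (30.9%), where 1.37% and 1.09% of the summits of all such hosts did. Gene lengths and shares of bases in snoRNA genes were not compared between these sets, and the differences were not tested. Nucleolin (NCL) and EIF4A2 are named because each held the highest score of this group in 1 of the lists. NCL held peaks in SNORA75 and SNORD20 in both lists and none elsewhere, with highest scores of 173395 (rank 18) and 132250 (rank 54). The ribosomal protein gene RPL13A held no summit in either list, with 4 snoRNA genes in its bounds. EIF4A2, a translation initiation factor gene, held none in the RPL22-HaloTag list and had 2 in the RPL22L1-HaloTag list, in SNORA4 and SNORA81, with a highest score of 3653287 (rank 4).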

How the data were processed

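RNA bound to HaloTag fusions was measured by GoldCLIP in HCT116 cells. The 2 deposited lists, 1 each for RPL22-HaloTag and RPL22L1-HaloTag, gave peaks with the authors' score, whose scale and control are not given in the sources used here; the peak names carry the term qpois. Per the submitters' processing notes, cutadapt 4.8, STAR 2.7.10a, UMI-tools 1.1.5, MACS3 3.0.0a6 and the build hg38 were used, with no role or order named. Members and gene lists were chosen with earlier results of these data known.

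Summits were placed in genes of the RefSeq table of GRCh38.p14, chromosomes only, by their bounds; a snoRNA gene is one typed so there, and scaRNA genes were told by symbol. Exons were not used. Start windows and host strands came from RefSeq promoter windows. Overlap means at least 1 base. Genes were named if they held a snoRNA summit, were among the 8 members with the most summits, or held a peak in the top 1% of scores; other members are given by counts. The position within a snoRNA gene, the pyrimidine run and the ranks among the first 50 and 200 were added after the data were seen. Alternatives were flat peaks left out, higher scores, lists of nearly equal size, peak overlap, widened snoRNA genes and SNHG14 left out. Further ones were summits in shorter overlapping genes left out, scaRNA genes added and a stricter overlap. Counting code was checked on planted peaks. Scripts ran under Python 3.11.15 with scipy 1.17.1 for intervals, pandas 2.3.3 and numpy 2.4.6 for tables, and matplotlib 3.10.9 for plots.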

Additional observations from a re-analysis of the deposited data

How the results depend on the processing

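Values are given for the RPL22-HaloTag and then the RPL22L1-HaloTag list. Without flat peaks, members held 38 and 52 summits, 36.8% and 38.5% of them in snoRNA genes, at a density ratio of 42.4 and 45.4, and 52.6% and 38.5% of peaks overlapped the other list; the SNHG14 log2 ratio was 0.36. Without SNHG14 the summits were 38 and 49, the snoRNA shares 36.8% and 40.8%, the density ratios 35.6 and 42.1 and the overlapping shares 47.4% and 36.7%. Another setting left out summits that also lay in a gene shorter than the member, snoRNA genes excepted. This took out summits within UBE3A and scaRNA genes, and kept those in longer genes such as MYO5B and LRRC75A. There were then 47 and 51 summits, with snoRNA shares of 29.8% and 39.2%. The density ratios were 30.8 and 46.9 and the SNHG14 log2 ratio was -1.00. Scores at or above the list's median gave 78 RPL22L1-HaloTag summits, a snoRNA share of 25.6% and a density ratio of 25.1. The numbers of occupied snoRNA genes stayed at 14 and 20 under every alternative run on them. Leaving out flat peaks, SNHG14, summits in shorter genes or scores below the median removes only summits outside snoRNA genes. Leaving out SNHG14 also removes 84 snoRNA genes without a summit from the density. The unchanged numbers of occupied snoRNA genes say little about stability, because all snoRNA peaks score far above the limits and none is flat. A number of members, summits or genes moved if it changed by over 1.5-fold, and a share or ratio if it left its counting interval. Of 90 alternative values, 25 moved, none of them a number of members or of occupied snoRNA genes. The other 65 did not by these limits, among them the RPL22-HaloTag density ratio of 30.8, which is inside its interval though over 1.5-fold above 17.3. The numbers of snoRNA summits beyond the midpoint, 13 and 18, did not change with the centre of the peak in place of the summit or without flat peaks, alternatives added after the data were seen. Lists of nearly equal size held the 159153 RPL22L1-HaloTag peaks scoring 98 or more, against 154000 RPL22-HaloTag peaks, because ties were kept. This setting leaves the RPL22-HaloTag list as it is, so its values there stayed by construction. No paired analysis was possible because each group has 1 library. The unknown read number and the missing strand limit every count.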
